A study of Mus musculus with 2 samples.

Results

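The general transcription machinery is the set of protein complexes that every expressed gene needs: the RNA polymerases, the factors that place them at promoters, and Mediator. Its genes were examined here for Hnf4a binding sites. Members were chosen by gene symbol, as every protein-coding gene whose symbol starts with Polr1, Polr2 or Polr3, or with Gtf, Taf or Med and then a digit. This gave 105 of 21883 protein-coding genes on the standard chromosomes. The family was selected on earlier sight of summits near its genes in these same data, so the counts below are descriptions and carry no test.

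RNA polymerase I makes ribosomal RNA, polymerase II makes messenger RNA, and polymerase III makes transfer RNA and other small RNAs. Polymerase II is placed at promoters by TFIIA, TFIIB, TFIID, TFIIE, TFIIF and TFIIH. TFIID holds the TATA-binding protein and the TBP-associated factors (TAFs), and Mediator links activators bound to DNA with the polymerase. Promoter activity was not measured here. As all cells use these complexes, most promoters of their genes are taken as sites active in most cell types, set apart from liver genes. The symbol pattern also takes in paralogs and genes outside the standard complexes, such as Gtf2a1l, Med12l, Taf4b, Taf7l and Taf7l2, for which this need not hold. Hnf4a is a nuclear receptor that directs hepatocyte genes.

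Binding was mapped by ChIL-seq, in which the Hnf4a antibody directs a DNA probe that guides Tn5 transposase to tag nearby DNA inside fixed cells. There was 1 group of 2 samples, both of iHepCs, wild-type C57BL/6J mouse embryonic fibroblasts (the labelled cell type) turned into hepatocyte-like cells by retroviral Foxa2 and Hnf4a. They were cultured with dexamethasone, hepatocyte growth factor and epidermal growth factor, and 10000 cells were used per well. Since retroviral Hnf4a was part of the conversion, both libraries come from cells given this factor, and no sample without it was analysed here. Of markers within 10 kb of a shared region there were 2 of 5 for hepatocytes (Afp and Serpina1a) and 0 of 5 for fibroblasts. Over all protein-coding genes the share was 20.6%, and 5 genes are too few to set either count apart from it. Binding sites do not measure which cells were present. The submitters call the samples biological replicates, but the labels do not say whether they came from separate conversions and the peak names give both the same lot, so their spread may be partly technical.

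Replicate 1 held 21283 summits and replicate 2 held 24097. A summit is the single base at the top of a peak, with the authors' score, the −log10 of its q-value, whose median was 7.32 in replicate 1 and 6.67 in replicate 2. A shared region joins summits of both replicates that lie within 100 bp of the next. There were 9193 of them. Distances run from a region's midpoint, or from a summit, to the nearer end of a gene. The read depth behind the scores is unknown.

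Promoter sequence is printed for 5 members whose shared region lies wholly before the gene's start, to show the DNA on which both replicates placed a summit. They cover Mediator, polymerase I and TFIIB, and in each no other protein-coding gene reaches into the stretch. The runs are the bases up to the start, on the gene's own strand, 5′ to 3′, from RefSeq (GRCm38.p6, the assembly of mm10). Capitals run from the first to the last summit of the shared region. Med6 lies on the minus strand at chr12:81595009-81595258, Med7 on the plus strand at chr11:46436697-46436935, Med29 on the minus strand at chr7:28392691-28392940, Polr1e on the plus strand at chr4:45018359-45018608 and Gtf2b on the plus strand at chr3:142764997-142765246.
Med6: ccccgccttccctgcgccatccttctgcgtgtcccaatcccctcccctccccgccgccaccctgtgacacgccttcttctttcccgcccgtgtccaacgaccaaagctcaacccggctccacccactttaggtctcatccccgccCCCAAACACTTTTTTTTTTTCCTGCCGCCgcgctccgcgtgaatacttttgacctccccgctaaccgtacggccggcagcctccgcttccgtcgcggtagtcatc
Med7: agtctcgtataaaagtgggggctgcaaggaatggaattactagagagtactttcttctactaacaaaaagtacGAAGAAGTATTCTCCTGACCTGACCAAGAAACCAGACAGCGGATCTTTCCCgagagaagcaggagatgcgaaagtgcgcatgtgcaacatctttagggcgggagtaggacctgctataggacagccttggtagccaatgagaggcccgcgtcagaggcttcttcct
Med29: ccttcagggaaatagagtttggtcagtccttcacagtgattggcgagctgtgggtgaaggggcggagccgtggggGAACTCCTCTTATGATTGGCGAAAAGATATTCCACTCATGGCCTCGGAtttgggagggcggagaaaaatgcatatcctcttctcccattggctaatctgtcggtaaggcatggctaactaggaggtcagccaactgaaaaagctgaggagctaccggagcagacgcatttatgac
Polr1e: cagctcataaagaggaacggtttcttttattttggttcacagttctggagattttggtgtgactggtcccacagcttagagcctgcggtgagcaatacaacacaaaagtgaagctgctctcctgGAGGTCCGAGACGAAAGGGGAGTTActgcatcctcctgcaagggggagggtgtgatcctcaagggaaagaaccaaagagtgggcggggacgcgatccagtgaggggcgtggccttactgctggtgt
Gtf2b: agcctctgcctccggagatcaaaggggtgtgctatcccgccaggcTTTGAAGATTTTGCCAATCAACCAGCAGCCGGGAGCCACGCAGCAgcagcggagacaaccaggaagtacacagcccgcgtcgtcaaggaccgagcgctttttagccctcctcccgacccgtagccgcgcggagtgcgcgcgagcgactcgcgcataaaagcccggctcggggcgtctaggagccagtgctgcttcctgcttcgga

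The capitals span 29 bp at Med6, 51 bp at Med7, 48 bp at Med29, 25 bp at Polr1e and 45 bp at Gtf2b. In Gtf2b the capitals hold the letters CCAAT, the CCAAT box, on the printed strand, from base -192 before the start. In Med29 they hold it on the other strand from base -161. In Med6 a GC box, GGGCGG on the other strand, starts at base -110 and runs into the capitals. The capitals of Med7 and Polr1e touch none of the 9 motifs searched. Other matches lay outside the capitals: CCAAT in Med29, Med6 and Med7, and the GC box in Med29, Med6, Med7 and Polr1e. Med7 also held TATAAA, the TATA box, outside them. Over all promoters, from 250 bases before to 50 after the start, CCAAT was in 39.2% and GGGCGG in 46.3%. CpG pairs numbered 24 in the printed Med6 run and 25 in that of Gtf2b, against 9 in each of Med7 and Med29 and 8 in Polr1e.

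Most members lacked a shared site nearby. A shared region lay within 10 kb of a gene end at 38 of the 105 members (36.2%), against 20.6% of all protein-coding genes. Within 1 kb there were 18 members (17.1%), against 8.73%. The replicates taken alone gave similar pictures. Replicate 1 had a summit within 10 kb of 64 members (61.0%, background 39.4%) and replicate 2 of 63 (60.0%, background 41.9%). Within 1 kb the counts were 36 members in replicate 1 (34.3%, background 18.2%) and 34 in replicate 2 (32.4%, background 18.0%). All 6 shares were above the background, but nothing is read from this, since the family was picked for it.

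The 45 shared regions within 10 kb of a member were 45 different regions, and 6 members had more than 1. Med29 had the most, with 3. The median distance from a member to its nearest shared region was 23800 bp, against 57600 bp over all genes. A summit of at least 1 replicate lay within 10 kb at 79 members (75.2%, background 51.7%) and within 1 kb at 47 (44.8%, background 24.6%). The remaining 26 members (24.8%) had no summit of either replicate within 10 kb, against 48.3% of all genes.

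**Figure D1:**
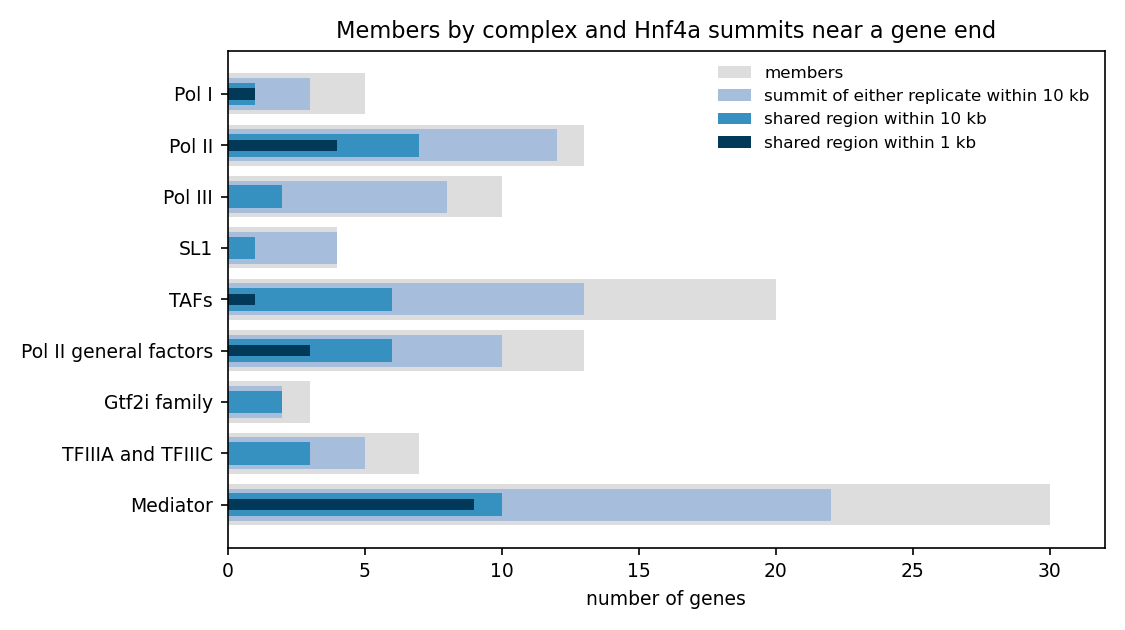
Number of genes in each complex (grey bars), with those that had a summit of either replicate within 10 kb of a gene end, a shared region within 10 kb, and a shared region within 1 kb as darker bars laid over them. Mediator has the most genes with a shared region within 1 kb (9 of 30), while polymerase III, SL1, the Gtf2i family and the TFIIIA and TFIIIC genes have none within 1 kb of a gene end. Each of these groups without one is too small to be set apart from the background. Over all genes the shares with a shared region were 20.6% within 10 kb and 8.73% within 1 kb.

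Among the polymerases, shared regions were commonest by count at polymerase II. Of its 13 genes, 7 had a shared region within 10 kb (53.8%, against 20.6% of all genes) and 4 within 1 kb (30.8%, against 8.73%). Of the 7, only Polr2g had a region to which no other protein-coding gene's end was nearer. A summit of at least 1 replicate lay within 10 kb at 12 (92.3%, against 51.7%). Polr2g, which encodes a subunit of the stalk that leaves the polymerase core, had the highest-scored region of the complex, 143 bp outside the gene, with 22.9 in both replicates. A second region 3702 bp away scored 5.53 in replicate 1 and 5.84 in replicate 2, but lies 230 bp from Zbtb3. Polr2g thus combines a site of near-equal high score in both libraries with a weak one at a neighbour.

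Polr2b encodes the second-largest subunit, which forms part of the active centre. Its region lay 223 bp upstream of the start and scored 12.4 in replicate 1 and 6.26 in replicate 2. Polr2h, shared by all 3 polymerases, had a region 277 bp upstream with 10.3 and 14.7. Polr2i, a small subunit, had one 71 bp inside the gene with 8.40 and 11.8. In these 3 cases another gene's end was nearer: Noa1 at 152 bp, Clcn2 at 197 bp and Tbcb at 52 bp. The replicates disagreed on which of the 3 was strongest.

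Polr2c, Polr2j and Polr2l had shared regions only beyond 1 kb. The Polr2j region, 7374 bp upstream of the start, scored 14.1 in replicate 1 and 17.5 in replicate 2, and Rasa4 was nearer, at 2543 bp. Polr2c had one 2825 bp inside its 3′ end (10.4 and 12.3) and another 7327 bp beyond that end (8.87 and 9.65), with Dok4 nearer in both cases, at 2411 and 4743 bp. Polr2l, common to all 3 polymerases, had one 3201 bp beyond its 3′ end (9.18 and 8.96), with Cd151 at 1297 bp. Polr2a, which encodes the largest subunit with the C-terminal repeat domain, had no shared region nearer than 79504 bp. Replicate 1 had a summit of 5.71 at 602 bp upstream of it, and replicate 2 had none within 10 kb.

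At polymerases I and III the share of genes with a shared region within 10 kb was 20.0% each, close to the 20.6% over all genes. Of 5 polymerase I genes, Polr1e alone had one, 114 bp upstream of its start, with 9.59 in replicate 1 and 14.1 in replicate 2. Polr1e encodes a subunit needed for initiation at ribosomal DNA. Polr1c and Polr1d, whose products serve both polymerases I and III, had none. For polymerase III, 2 of 10 genes had a shared region within 10 kb and 0 within 1 kb (against 8.73% of all genes). The 10 genes are too few to set the latter apart from the background. The Polr3c region lay 1970 bp upstream (9.26 and 10.7), with Rnf115 nearer, at 1871 bp. Polr3gl, an alternative form of a subunit, had regions 1173 and 2119 bp beyond its 3′ end, with 7.17 and 7.02 in replicate 1 and 11.9 and 12.5 in replicate 2. At least 1 replicate had a summit within 1 kb at 5 of the 10, against 24.6% of all genes.

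Among the 13 genes for TFIIA, TFIIB, TFIIE, TFIIF and TFIIH, 6 had a shared region within 10 kb (46.2%, against 20.6% of all genes) and 3 within 1 kb (23.1%, against 8.73%). Gtf2b encodes TFIIB, which joins TBP and the polymerase. Its region 183 bp upstream, in the run printed above, scored 8.70 in replicate 1 and 8.89 in replicate 2. Gtf2f1, a subunit of TFIIF, had a region 48 bp inside the gene with 9.26 and 10.2. Gtf2e2, a subunit of TFIIE, had one 47 bp inside a gene end with 6.77 and 6.58. These 3 sites had close scores in both replicates, none of them high.

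The highest score at any member was that of the TFIIH gene Gtf2h1, whose product belongs to the core of that repair and transcription factor. This region lay 9548 bp beyond its 3′ end, close to the limit of the window, and scored 28.9 in replicate 1 and 26.6 in replicate 2. Ldha, the lactate dehydrogenase gene, was nearer, at 8926 bp. Another region of Gtf2f1, 6235 bp beyond its 3′ end (16.2 and 12.4), lay 173 bp from Alkbh7. The TFIIA genes Gtf2a1 and Gtf2a2 had regions 5369 bp inside the 3′ end (14.6 and 12.2) and 1373 bp upstream of the start (10.5 and 18.5), the latter 484 bp from Bnip2. The stronger regions of this group thus lay away from the members' own starts.

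Genes of the polymerase III factors TFIIIA and TFIIIC had shared regions within 10 kb in 3 of 7 cases (42.9%, against 20.6% of all genes). Within 1 kb there were 0, against 8.73% of all genes, and 7 genes are too few to set this apart from the background. The 3 were Gtf3c6, 1280 bp upstream (6.89 in replicate 1 and 6.06 in replicate 2), Gtf3c1, 2431 bp inside the gene (7.15 and 3.91), and Gtf3c5, 8336 bp upstream (8.67 and 4.21). TFIIIC binds the internal promoters of transfer RNA genes. All 3 scored lower in replicate 2. Gtf2i is a signal-dependent factor whose name places it with this machinery though it is no subunit of it. In its family, 2 of 3 genes had a shared region within 10 kb (66.7%, against 20.6% of all genes). Their regions lay 3974 bp inside at Gtf2i (11.99 in replicate 1 and 8.59 in replicate 2) and 2005 bp inside at Gtf2ird2 (8.43 and 9.70). From the nearest start that RefSeq lists, rather than the outer one, these lay 1056 and 524 bp inside, so the Gtf2ird2 region is within 1 kb of a listed start.

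The TAFs, which form TFIID with TBP and in part the SAGA coactivator, had a shared region within 10 kb at 6 of 20 genes (30.0%, against 20.6% of all genes). Within 1 kb there was 1 (5.0%, against 8.73%), a count too small to set apart from the background. It was Taf8, with a region 240 bp inside the start that scored 9.91 in replicate 1 and 13.6 in replicate 2. Among the others, Taf6, which has a histone-like fold, had regions 6778 bp (9.31 and 10.8) and 7469 bp (6.39 and 7.91) beyond its 3′ end, where Ap4m1 was nearer, at 182 and 873 bp. Taf10 had one 5065 bp beyond its 3′ end (7.14 and 8.49), and Rrp8 was 444 bp from it. The Taf1 region, 4905 bp inside the gene by its outer start (7.27 and 5.17), lay at -258 bp from another start that RefSeq lists. Of the paralogs, Taf7l had one 5793 bp beyond its 3′ end (5.34 and 6.29), with Drp2 nearer, at 2251 bp. Taf7l2 had one 3161 bp upstream (7.505 and 5.73). Of SL1, the TAF complex that serves polymerase I, only Taf1a of 4 genes had a shared region within 10 kb (25.0%, against 20.6% of all genes). It lay 6785 bp upstream (18.8 and 8.29).

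Mediator, the largest complex, had the most genes with a region within 1 kb by count, while its share was close to that of polymerase II. Another gene's end was nearer at Polr2b, Polr2h and Polr2i, but among the Mediator genes only at Med22. Of 30 genes, 10 had a shared region within 10 kb (33.3%, against 20.6% of all genes) and 9 within 1 kb (30.0%, against 8.73%), so that, at 9 of these 10, the site was at a gene end. In the other complexes together, 28 of 75 genes had one within 10 kb (37.3%) and 9 of 75 within 1 kb. The size of the contrast within 1 kb depended on the summits used. In replicate 1 alone, 12 of 30 Mediator genes (40.0%) and 24 of 75 others (32%) had a summit within 1 kb (background 18.2%). In replicate 2 alone it was 15 (50.0%) and 19 (25.3%), with a background of 18.0%. With the 10000 best summits of each replicate, shared regions remained within 1 kb at 5 of 30 and 7 of 75 (background 4.98%). At a sharing distance of 50 bp these were 8 of 30 and 6 of 75 (background 6.25%). With scores of 5 or more they were 7 of 30 and 9 of 75 (background 7.76%). The difference was noticed in these data and was not tested. At least 1 replicate had a summit within 1 kb at 16 of the 30 (53.3%, against 24.6% of all genes).

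In the head module, which contacts the polymerase, 4 of 11 genes had a region within 1 kb (36.4%, against 8.73% of all genes). The Med6 region, 91 bp upstream, scored 24.6 in replicate 1 and 17.0 in replicate 2. Med29 had one 151 bp upstream with 20.2 and 15.2. Med17, a central subunit of the head, had one 253 bp upstream with 6.08 and 17.3, the widest gap between replicates among the 18 sites. Med22 had one 104 bp upstream with 6.61 and 9.06, and the ribosomal protein gene Rpl7a was nearer, at 61 bp. Med6 and Med29 were thus high in both libraries, and Med17 in replicate 2 alone.

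The Med29 region lies between that gene and Paf1, at 155 bp from the latter. Paf1 encodes a subunit of a polymerase II elongation complex, so both genes beside this site belong to transcription. Further regions lay beyond the 3′ end of Med29, at 2127 bp (13.9 in replicate 1 and 16.5 in replicate 2) and at 8607 bp (10.9 and 7.20). The latter was 144 bp from Zfp36, which encodes an RNA-binding protein that destabilises messenger RNA.

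In the middle module, 2 of 9 genes had a region within 1 kb (22.2%, against 8.73% of all genes). Med7 had one 141 bp upstream with 17.9 in replicate 1 and 19.5 in replicate 2, and Med9 one 78 bp upstream with 6.90 and 4.11. In the tail, which many activators contact, 2 of 6 did (33.3%): Med16, 443 bp inside the gene (15.6 and 11.4), and Med23, 142 bp outside (8.21 and 4.01). In the kinase module, which can block the contact with the polymerase, Med12 had one 59 bp inside the gene (11.9 and 8.0), on chromosome X, and Med13 had one 9340 bp beyond its 3′ end (11.7 and 9.46), 84 bp from Ints2. The assignment of subunits to modules follows a common scheme, and some placements differ between accounts. Regions occurred in all 4 modules.

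**Figure D2:**
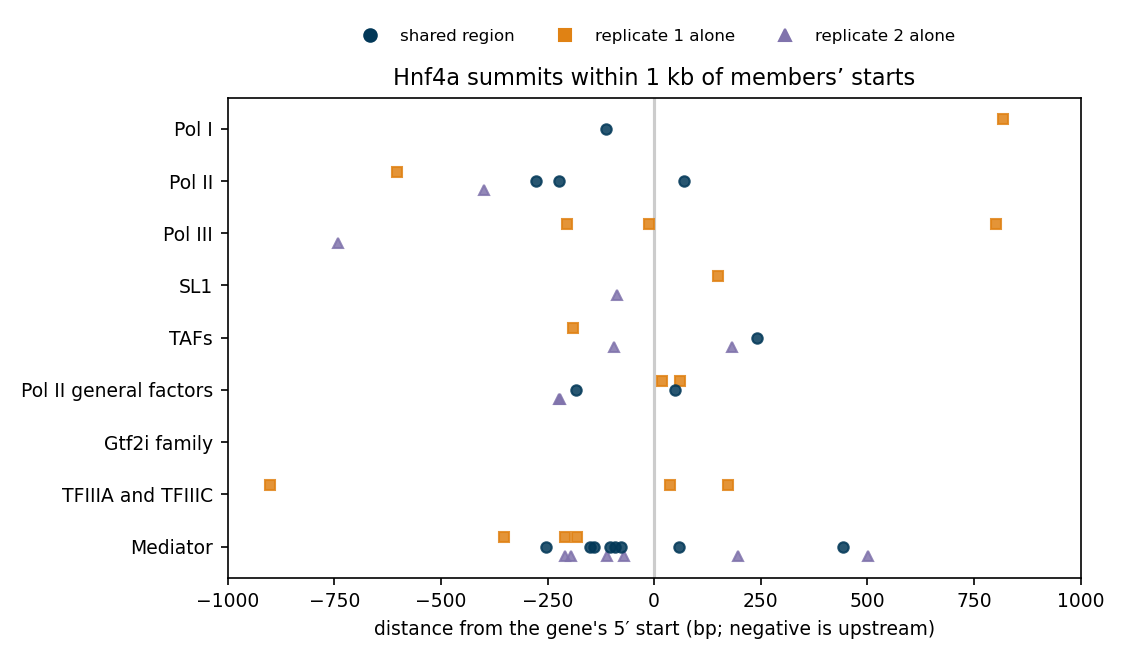
Position of each shared region and of each summit found in 1 replicate alone, in bp from the outer 5′ start (negative is upstream), within 1 kb of the 91 members of known strand, 1 row per complex. The shared regions sit between 277 bp upstream and 443 bp inside the gene, and 8 of the 15 belong to Mediator.

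The regions close to members lay at the starts of the genes. Strand was known for 91 members, through the RefSeq promoter table. A shared region lay within 1 kb of the outer 5′ start at 15 of them (16.5%, against 8.14% of all genes of known strand) and within 1 kb of the 3′ end at 0 (against 1.0%). Of the 15 regions, 10 lay upstream of the start and 5 inside the gene, and 14 were within 300 bp. With the 3 regions of Gtf2e2, Med23 and Polr2g, whose strand was not known here, distances to the gene end ran from 47 to 443 bp with a median of 141.5 bp. At the limits of the windows, Med16 at 443 bp and Polr2h at 277 bp were the farthest inside 1 kb, and Polr3gl at 1173 bp and Gtf3c6 at 1280 bp the next beyond. At 10 kb, Med13 at 9340 bp and Gtf2h1 at 9548 bp were inside, and Med15 at 10090 bp and Med11 at 11139 bp outside.

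**Figure D3:**
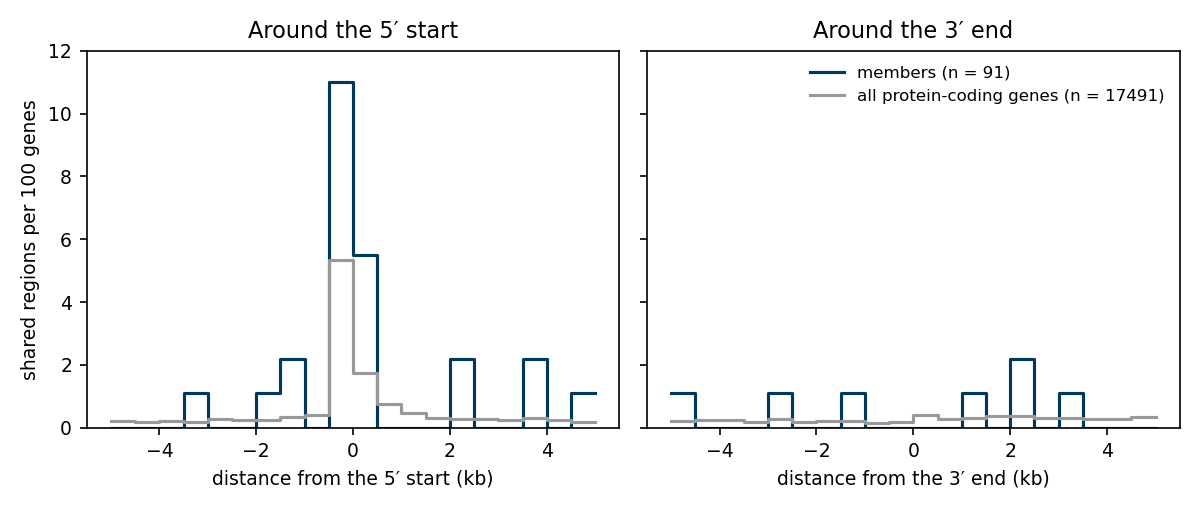
Shared regions per 100 genes in bins of 500 bp, from 5 kb before to 5 kb after the outer 5′ start (left) and the 3′ end (right), for the 91 members and the 17491 protein-coding genes of known strand. In the bin just before the start the members reach 11.0 per 100 genes against 5.33 over all genes, in the next bin 5.49 against 1.74, and the members' other bins rest on 2 regions at most.

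The regions between 1 and 10 kb were more often nearer to another gene than those within 1 kb. A longer distance leaves more room for a nearer gene, and the same split was not counted over all genes. There were 27, of which 6 lay inside the member and 21 outside. Another protein-coding gene's end was nearer in 15 of the 27, and 8 lay within 1 kb of that other gene. The count within 10 kb therefore holds sites that belong, by distance, to neighbours such as Alkbh7, Ap4m1, Bnip2, Ints2, Rrp8 and Zfp36. Within 1 kb this was so for 4 of 18 regions. Counting a region only where the member was the nearest gene left 24 members within 10 kb and 14 within 1 kb. This rule was not applied to all genes, so these counts cannot be set beside the backgrounds above.

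Neighbours were common. Another protein-coding gene's end lay within 1 kb of an end of 48 of the 105 members (45.7%), against 24.8% of all genes. Among these 48, 9 had a shared region within 1 kb (18.8%), where the background for genes with so close a neighbour was 13.2%. Among the 57 without one, 9 did (15.8%), where the background was 7.26%. The members' share was 5.6 and 8.5 percentage points above the background in these classes.

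The replicates overlapped on part of these genes. Within 1 kb, 23 members had a summit in both replicates (21.9%, against 11.6% of all genes). A further 13 had one in replicate 1 only and 11 in replicate 2 only, against 1431 and 1397 of all 21883 genes. Of the 23, 5 had no shared region there, against 645 of 2548 over all genes. At Med19 the summits stood 139 bp apart with 17.2 in replicate 1 and 26.3 in replicate 2, both high for this family, and at Med26 144 bp apart with 5.67 and 6.22. At Gtf2e1 and Polr3f the gaps were 283 and 536 bp, and at Gtf3c6 the summits lay at opposite ends of the gene. The best-scored sites within 1 kb without a counterpart in 100 bp were those of Med19 and Gtf3c6 (13.7) in replicate 1, and of Med19 and Gtf2h3 (9.0) in replicate 2. The Gtf2h3 summit lay 192 bp from Tctn2, and the Gtf3c6 summit 901 bp upstream. Med19 thus missed the shared count only by the distance allowed.

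The scores of these regions were ordinary for sites at genes. Over the 18 shared regions within 1 kb of a member, the median was 9.75 in replicate 1 and 11.6 in replicate 2, and over all 1701 shared regions within 1 kb of a protein-coding gene end 10.2 and 9.78. Members ranged from 6.08 to 24.6 in replicate 1 and from 4.01 to 22.9 in replicate 2, while over all such regions the scores reached 93.3 and 73.7. Replicate 1 was higher at 8 of the 18. Over the 45 regions within 10 kb, Spearman's rho between the replicates was 0.567, beside 0.571 over the 3592 regions near any gene. These are correlations across regions of the same 2 libraries and are given as descriptions.

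**Figure D4:**
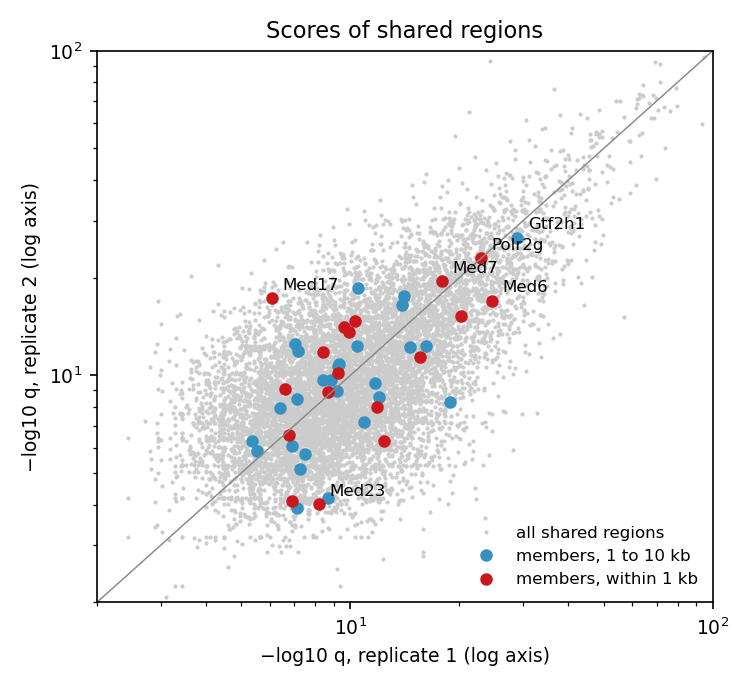
Score (−log10 q, logarithmic axes) of each shared region in replicate 1 and replicate 2, with all shared regions in grey, those within 1 kb of a member in red and those at 1 to 10 kb in blue. The grey line marks equal scores and regions above 100 are not drawn. The members' regions lie within the cloud, with Gtf2h1 (28.9 and 26.6) the highest of them on both axes and Med17 (6.08 and 17.3) far from the line.

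Within 1 kb, other families of widely expressed genes gave shares of the same order, beside 8.73% of all genes. Shared regions were found at 8 of 45 proteasome genes (17.8%), 12 of 78 genes for mitochondrial ribosomal proteins (15.4%) and 10 of 86 for cytosolic ones (11.6%). Olfactory receptor genes, silent in most cells, had 0 of 1110. Within 10 kb the machinery's 36.2% was above the 28.9% of proteasome genes, the 26.9% of mitochondrial and the 18.6% of cytosolic ribosomal protein genes. Over all genes it was 20.6%, so the cytosolic ribosomal share lay below the background. In single replicates the orders changed: mitochondrial ribosomal genes had the highest share within 1 kb in both, with 39.7% in replicate 1 and 34.6% in replicate 2. These differences between families were not tested.

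Further genes of general transcription, outside the symbol pattern, were listed for comparison: TBP and its relatives, kinases and cyclins of TFIIH and Mediator, polymerase III factors, and elongation factors. Of 50, 10 had a shared region within 10 kb (20.0%) and 5 within 1 kb (10.0%), both shares near the background over all genes. The 5 were Brf1, a polymerase III initiation factor, at 217 bp (24.0 in replicate 1 and 29.6 in replicate 2), Paf1, Nelfb of the pausing complex NELF at 735 bp (17.2 and 13.7), and the elongation factor genes Tcea1 at 168 bp (14.2 and 6.89) and Ell at 192 bp (8.98 and 6.67). By single replicates these genes were nearer to the members, with 38.0% within 1 kb in replicate 1 and 26.0% in replicate 2.

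**Figure D5:**
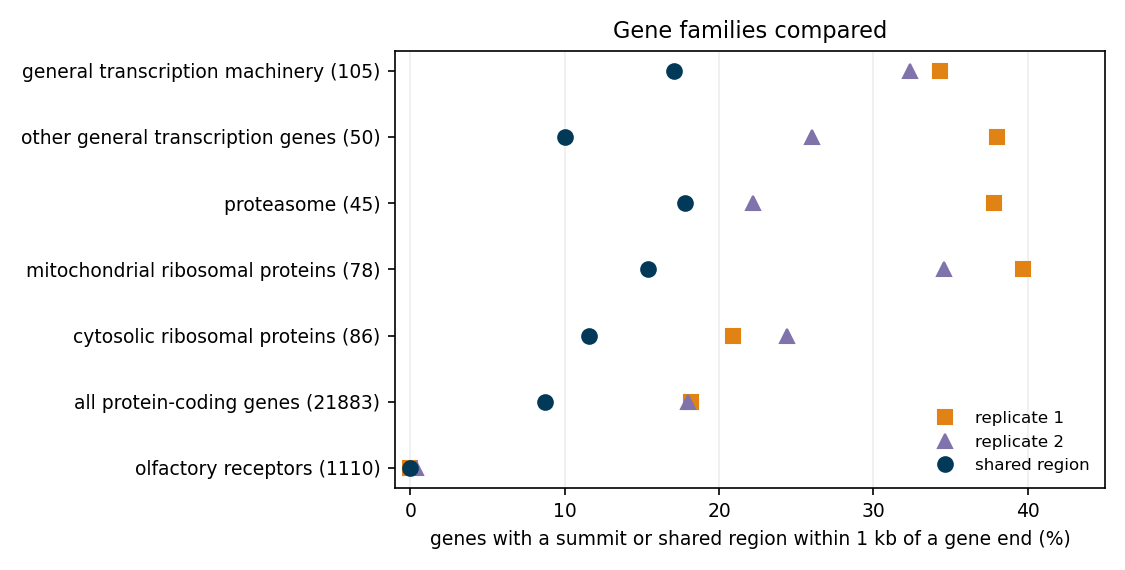
Percentage of genes in each family with a summit of replicate 1, a summit of replicate 2, or a shared region within 1 kb of a gene end, with the number of genes in brackets. The machinery (17.1% shared) lies beside the proteasome (17.8%) and mitochondrial ribosomal genes (15.4%), above all protein-coding genes (8.73%) and olfactory receptors.

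Nearly all members have CpG-rich promoters, the class in which shared regions were commonest. In the stretch from 250 bases before to 50 after the start, the median ratio of observed to expected CpG pairs was 0.847 over 91 members, against 0.577 over 17491 genes, and 82 members (90.1%) were CpG-rich, with a ratio of 0.6 or more, against 48.4%. Over all genes, a shared region lay within 1 kb of the start at 13.4% of those with a CpG-rich promoter and at 3.21% of the others. Among CpG-rich promoters, 14 of 82 members had one (17.1%), and among the others 1 of 9 (11.1%), Polr1e, whose ratio was 0.57. The members' share was 3.7 percentage points above the background within CpG-rich promoters and 8.3 points above it over all genes of known strand. This split was chosen after the data were examined. Members with and without a shared region within 1 kb had close medians, 0.87 and 0.842.

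Promoter letters were searched on both strands in the same 300 bases. The ETS letters CCGGAAG were in 32 of 91 member promoters (35.2%), against 11.9% of all promoters and 19.9% of CpG-rich ones. The NRF1 letters GCATGCGC were in 9 (9.89%, against 3.6% and 6.49%), and the YY1 letters AAGATGGCG in 5 (5.49%, against 1.92% and 3.64%). Among the 15 members with a shared region at the start, 4 held the ETS letters, 3 the NRF1 letters and 1 the YY1 letters, and the ETS share there (26.7%) stood beside 36.8% in the 76 members without a region within 1 kb. The GC box GGGCGG was in 57 (62.6%, against 46.3% and 74.1%) and CCAAT in 29 (31.9%, against 39.2% and 37.9%). The TATA box TATAAA was in 11 (12.1%, against 13.3% and 5.85%) and the CRE letters TGACGTCA in 3 (3.3%, against 2.33% and 3.87%). The palindrome CTCGCGAG was in 0, against 1.31% and 2.52%.

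The HNF4 letters CAAAGTCCA were in 0 of the 91 member promoters, and in 73 of all 17491 (0.417%). Among all promoters with a shared region within 1 kb of the start they were in 3 of 1423 (0.211%). The lack of a match says only that this one spelling is not in these windows, which do not reach every summit. How many of the members' regions are bound by Hnf4a itself was not tested.

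Chromosome X, which carries few shared sites, held 5 members: Med12, Med14, Taf1, Taf7l and Taf9b. Of these, 3 had a shared region within 10 kb (Med12, Taf1 and Taf7l), where 7.35% of the 966 protein-coding genes on X did. The count rests on 5 genes and was not tested, and the Taf7l region lay nearer to Drp2, at 2251 bp. The scores at these 3 were between 5.17 and 11.9.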

How the data were processed

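ChIL-seq for Hnf4a was analysed in 2 samples of 1 group. Reads were processed with fastp 0.23.4, HISAT2 2.0.5 and MACS2 2.2.9.1 on mm10, per the submitters' processing notes. The authors deposited 1-bp summits per library, each with a −log10 q-value, at a threshold of 0.01 per the peak names. For a control library, duplicate removal and blacklisting, details were not given in the sources used here. Each could change which promoter sites were called. No deposited score fell below 2.04 in replicate 1 or 2.01 in replicate 2. Depth is unknown, so no interval is given.

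Summits of both lists within 100 bp were merged, and regions with both replicates were called shared. Genes, strands and promoters came from RefSeq (GRCm38.p6), by symbol and gene ID. All 105 members had gene ends, and 91 had a promoter entry and thus a strand. For each gene the promoter entry nearest its outer start was used. Rps6k, Rps19bp and Psmc3ip genes were left out of the ribosomal and proteasome families.

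With 1 group, no control samples and a family proposed from these data, no test was run. Members, complexes, lists and alternatives were chosen with earlier results of these data known. Named genes are every member with a shared region within 1 kb, up to 3 per complex by the worse rank of both replicates, Polr2a, and the best-scored summits of 1 replicate. Other genes with a region are named besides, chosen after their values were seen. The counting was tested on simulated data. Python 3.11.15, numpy 2.4.6, pandas 2.3.3, scipy 1.17.1 and matplotlib 3.10.9 were used.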

Additional observations from a re-analysis of the deposited data

How the results depend on the processing

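Of 37 recounts, 25 stayed within 1.5 times the reported count. Without paralogs and genes outside the standard complexes, 34 of 93 members had a shared region within 10 kb (background 20.6%). Within 1 kb it was 18 of 93 (background 8.73%). Taking the 10000 best-scored summits of each replicate left 24 members with a shared region within 10 kb (background 12%). In single replicates it left 37 in replicate 1 and 38 in replicate 2 within 10 kb (backgrounds 22.6% and 22.2%). Within 1 kb it left 19 and 18 (backgrounds 10.1% and 9.52%). Leaving out a replicate, so that a summit of the other sufficed, gave 63 to 64 members within 10 kb (backgrounds 41.9% and 39.4%). Within 1 kb it gave 34 to 36 (backgrounds 18.0% and 18.2%). With the 3′ end alone 16 of 91 members had a shared region within 10 kb (background 10.4%) and 0 within 1 kb (background 1.0%). Requiring the member to be the nearest gene left 24 within 10 kb, with no background counted. In the recounts that have a background, except the 3′ end within 1 kb, the members' share was above it. These recounts use the same summits for which the family was picked, so nothing is read from this.

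Of the 18 members with a shared region within 1 kb, all were kept with sharing distances of 200 and 500 bp, which added Med19 and Med26 and, at 500 bp, Gtf2e1. At 50 bp 14 were kept, without Polr2h, Taf8, Gtf2f1 and Med12. With scores of 5 or more 16 were kept, without Med9 and Med23, and the 10000 best summits also lost Med17, Med22, Polr2b and Gtf2e2, leaving 12. No paired analysis was possible because there is only 1 group, with nothing to pair it with. The restriction to CpG-rich promoters was chosen after seeing the data and kept 14 of the 15 members with a region at the start.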
